A study of Mus musculus with 6 samples.

Results

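The genes described here are 43 translation initiation and elongation factors, the cytoplasmic proteins that place a ribosome on the start codon of an mRNA and then feed it with charged tRNA. They were chosen by gene symbol, and all 43 were found among the 22298 entries of a table of RNA levels in the newborn mouse lens. Fyco1-/- lenses, 3 libraries (A, B and C), were set against wild-type (WT) lenses, 3 libraries (A, B and C). Every library held RNA of 10 pooled lenses from C57BL/6 mice at postnatal day 0, so each value is an average over lenses. How the Fyco1 allele was made is not given in the sources used here. Values are FPKM, fragments counted per kilobase of gene and scaled to the mapped reads of the library. The product of Fyco1 couples autophagosomes to kinesin motors, and the comparison asks which lens transcripts differ when it is disrupted.

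Initiation begins when eIF2, loaded with GTP and the initiator tRNA, joins the small ribosomal subunit together with eIF1, eIF1A, eIF3 and eIF5. The mRNA is brought by the cap-binding factors of the eIF4 group, which also contact the poly(A)-binding protein, and eIF5B then joins the large subunit. In elongation eEF1A delivers each aminoacyl-tRNA and eEF2 moves the ribosome on by a codon. The lens needs this machinery for the mass synthesis of crystallins in fibre cells, which make their proteins before they lose nuclei and ribosomes.

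The libraries held an estimated 17.07 M to 20.05 M reads, worked out from the smallest steps between FPKM values. The targeted gene, Fyco1, measured 4.61, 4.59 and 4.87 FPKM in Fyco1-/- libraries, against 5.40, 5.21 and 5.11 FPKM in WT libraries. The groups did not overlap, but the difference was not called (log2 fold change -0.15, SE 0.076, limma adjusted p = 0.273). A level summed over all exons does not show the allele, so it does not check the genotype labels. Lens fibre markers summed to 138239 to 143387 FPKM in Fyco1-/- libraries and 137006 to 141162 FPKM in WT libraries, with 1 of 11 higher and 3 lower. Lens epithelium markers summed to 822 to 843 FPKM in Fyco1-/- libraries and 946 to 1046 FPKM in WT libraries, and 5 of 10 tested were lower. In bulk RNA, fewer cells of a type and less RNA per cell cannot be told apart. Of retina and pigment epithelium markers, Crx, Nrl, Otx2, Tyr and Rpe65 stayed below 0.5 FPKM in every library.

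Most translation factors differed little between the genotypes. Of the 43, 3 were called higher in Fyco1-/- lenses (Pabpc1, Eif5b and Eif3j2) and 5 were called lower (Eif3j1, Eif3k, Eif4a2, Eef1a1 and Eif4b), where a call is a limma adjusted p under 0.05. All 43 passed the filter of a mean of at least 0.5 FPKM. These 8 are 18.6% of the 43, whereas 8.43% of the 12001 tested genes were called (3.42% higher and 5.02% lower). Translation factors are abundant transcripts, and among the 3247 tested genes with a mean of at least 10 FPKM the share called was 15.7%, against 7 of the 41 translation factors at that level. The share of calls among the factors was thus near that of other abundant genes. Leaving out any 1 library left 2 or 3 of the 5 lower calls, Eif3j1 and Eif3k among them each time, and median-of-ratios scaling left those 2. Over all genes that scaling gave 627 higher and 483 lower calls, against 410 and 602 here. The differences were small: 26 of the 43 had a log2 fold change below 0.1 in size and 3 exceeded 0.3. The median log2 fold change was 0.02 over the 43 and -0.04 over all tested genes, and the median sizes were 0.07 and 0.12. An unadjusted p under 0.05 was found for 17 of the 43 (39.5%) and for 24.4% of all tested genes. All 3 values of 1 genotype lay above those of the other in 19 of the 43 (44.2%), 10 higher and 9 lower in Fyco1-/-, and in 29.7% of all tested genes. These shares were not worked out for genes of at least 10 FPKM, so they do not set the factors against genes of like level.

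**Figure D1:**
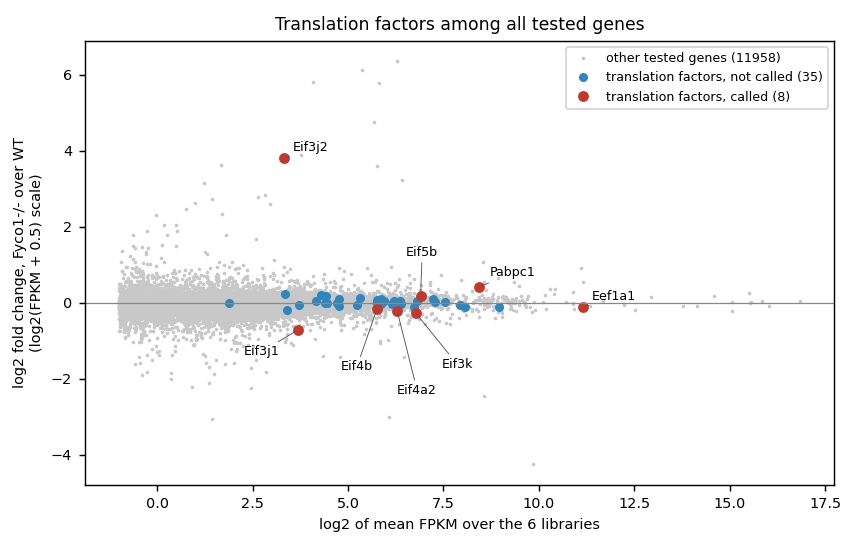
Log2 fold change of Fyco1-/- over WT, on the log2(FPKM + 0.5) scale, against the log2 of mean FPKM over the 6 libraries, 1 point per tested gene. The 8 called translation factors are red and named, the other 35 are blue and lie close to the zero line, and Eif3j2 stands far above the rest at 3.80.

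Replicates of a genotype lay close together. The median coefficient of variation over the 43 was 3.42% among Fyco1-/- libraries and 3.04% among WT libraries. The least even values were those of Eif2b3 in Fyco1-/- libraries (11.2%) and of Eif3j2 in WT libraries (23.9%). Together the 43 took 0.7616% to 0.7744% of the summed FPKM in Fyco1-/- libraries, against 0.7803% to 0.8115% in WT libraries. The groups did not overlap, with every Fyco1-/- library below every WT library. The share leans on Eef1a1, the most abundant of the 43, at a mean of 2191 FPKM in Fyco1-/- and 2379 FPKM in WT. The total varied as well, at 752187 to 760459 FPKM in Fyco1-/- libraries and 741913 to 757094 FPKM in WT libraries. The share therefore does not describe the 43 as a set.

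Levels per kilobase spanned a wide range, with the elongation factors at the top. Eef1a1, which encodes the carrier of aminoacyl-tRNA, averaged 2191 FPKM in Fyco1-/- and 2379 FPKM in WT and was the 17th most abundant of all tested transcripts in WT. Eef2, the translocase gene, followed at 479.6 and 518 FPKM, and Pabpc1, the gene of the main cytoplasmic poly(A)-binding protein, at 391 and 295 FPKM. The eIF2B subunits, the exchange factor that recharges eIF2 with GTP, had the lowest median of the roles, 11.2 FPKM in both genotypes, and ran from 3.70 to 20.9 FPKM in Fyco1-/- and from 3.74 to 18.2 FPKM in WT. Means under 10 FPKM were those of Eif2b3 in both genotypes, of Eif3j1 and Eif2b4 in Fyco1-/-, and of Eif2b1 and Eif3j2 in WT.

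**Figure D2:**
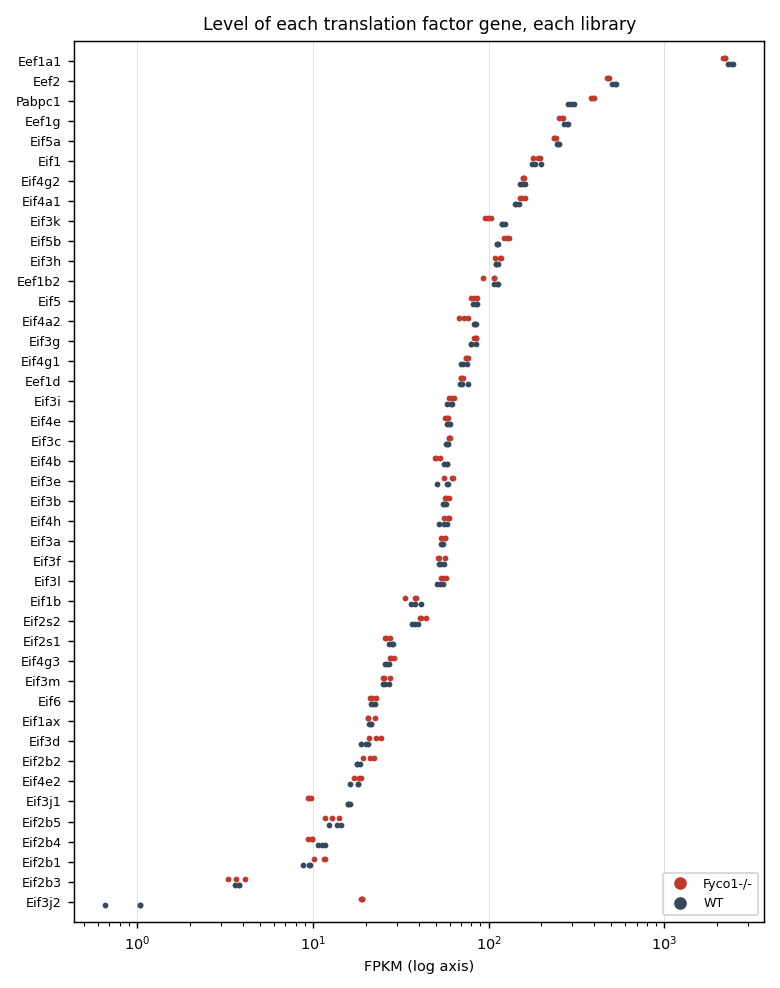
FPKM of each of the 43 genes in each library on a log axis, ordered by the WT mean, with Fyco1-/- above WT in each line. Points of a gene lie close together over nearly the whole range; the exceptions are Eif3j2, at 18.8 to 19.2 FPKM in Fyco1-/- and 0.664 to 1.05 FPKM in WT, and Eif3j1, which is lower in Fyco1-/-.

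The promoters of these genes were searched for 3 short motifs, as a feature that the choice of genes did not use. RefSeq promoter windows on GRCm38.p6, from 250 bases before to 50 bases after the start, were matched for 33 of the 43 by symbol. The letters CCGGAAG, the core bound by ETS family factors, were found on either strand in 12 of the 33 (36.4%), against 9.93% of 27025 promoters and 24.4% of the 2499 promoters of genes with at least 10 FPKM. The letters CACGTG, the E-box bound by MYC and related factors, stood in 10 of the 33 (30.3%), against 8.09% of all promoters and 13.4% of the promoters of abundant genes. The TATA letters TATAAA stood in 4 of the 33 (12.1%), against 15.7% of all promoters and 8.20% of those of abundant genes. Matches of different motifs cannot overlap, the motifs were chosen after values were seen, and a match is a match of letters and not a site. Of the 6 called genes with a window, Eif3k holds CACGTG, and none holds CCGGAAG or TATAAA. The sequences below run from 100 bases before to 30 bases after the start, with the motif in capitals. Eif3k (chr7:28981859-28981988, minus strand), an eIF3 subunit gene called lower, and Eif4g1 (chr16:20672627-20672756, plus strand), the eIF4G scaffold gene that was not called, show CACGTG, the second in 2 places.
Eif3k: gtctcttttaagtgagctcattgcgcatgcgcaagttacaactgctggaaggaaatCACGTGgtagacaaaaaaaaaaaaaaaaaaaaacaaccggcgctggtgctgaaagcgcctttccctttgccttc
Eif4g1: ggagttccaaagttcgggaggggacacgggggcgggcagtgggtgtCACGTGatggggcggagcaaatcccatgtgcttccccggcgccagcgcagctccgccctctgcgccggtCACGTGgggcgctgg
Eif2b2 (chr12:85219381-85219510, plus strand), the beta subunit gene of eIF2B, and Eif3g (chr9:20898561-20898690, minus strand), an eIF3 subunit gene, show CCGGAAG.
Eif2b2: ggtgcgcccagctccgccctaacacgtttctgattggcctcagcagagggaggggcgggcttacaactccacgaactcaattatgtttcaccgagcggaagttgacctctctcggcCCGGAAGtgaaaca
Eif3g: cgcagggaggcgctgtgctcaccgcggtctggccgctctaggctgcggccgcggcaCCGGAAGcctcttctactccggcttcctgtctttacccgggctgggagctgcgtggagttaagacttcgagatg
Eif4a2 (chr16:23107368-23107497, plus strand) and Eif3j1 (chr2:122028480-122028609, plus strand), both called lower, hold none of the 3 motifs, and so carry no capitals.
Eif4a2: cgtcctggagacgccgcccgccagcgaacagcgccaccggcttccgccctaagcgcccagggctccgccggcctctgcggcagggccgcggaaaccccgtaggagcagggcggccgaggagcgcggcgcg
Eif3j1: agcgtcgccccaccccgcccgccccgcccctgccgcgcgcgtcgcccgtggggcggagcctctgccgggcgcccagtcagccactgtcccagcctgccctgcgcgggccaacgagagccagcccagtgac

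None of the genes for start codon selection or eIF2 was called by limma, and 1 of these 6, Eif2s2, had an unadjusted p under 0.05, as did 24.4% of all tested genes. Eif1, which encodes the factor that keeps the scanning ribosome open and is the most abundant of its group, averaged 188 ± 8.27 FPKM in Fyco1-/- and 186 ± 10.7 FPKM in WT (SD, n = 3 each; log2 0.02, SE 0.049, limma adjusted p = 0.859). Eif1b, a close copy of Eif1, Eif1ax, which encodes eIF1A, and Eif5, which encodes the protein that triggers GTP hydrolysis by eIF2, had log2 fold changes of -0.07, -0.0019 and -0.03 and overlapping groups. Eif2s2, the gene of the beta subunit of eIF2, measured 41.2, 40.7 and 43.9 FPKM in Fyco1-/- libraries, against 38.0, 36.7 and 39.96 FPKM in WT libraries. The groups stood apart by a small margin and limma did not call the difference (log2 0.13, SE 0.051, adjusted p = 0.145). Eif2s1, the gene of the alpha subunit that stress kinases phosphorylate, averaged 26.6 and 28.1 FPKM in Fyco1-/- and WT.

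The 5 eIF2B subunit genes pointed in different directions. Eif2b2 measured 21.3, 22.3 and 19.2 FPKM in Fyco1-/- libraries, against 18.0, 17.8 and 18.7 FPKM in WT libraries (log2 0.20, SE 0.064, limma adjusted p = 0.0896). Every Fyco1-/- library was above every WT library for Eif2b2 and for Eif2b1, the alpha subunit gene (log2 0.24, limma adjusted p = 0.0798). For Eif2b4, the delta subunit gene, every Fyco1-/- library was below (log2 -0.20, limma adjusted p = 0.0994). Eif2b5, which encodes the catalytic subunit, and Eif2b3 overlapped between the genotypes. None of the 5 was called by limma or in the authors' deposited table, 3 had an unadjusted p under 0.05 (24.4% of all tested genes did), and Eif2b2 was called under median-of-ratios scaling (adjusted p = 0.0414) and without Fyco1-/- C (adjusted p = 0.0450).

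Within eIF3, the scaffold that holds the small subunit and recruits mRNA, 1 subunit gene fell apart from the Eif3j pair. Eif3k, which encodes a small peripheral subunit that pairs with eIF3l, measured 98.8, 96.0 and 103 FPKM in Fyco1-/- libraries, against 119.9, 119 and 124 FPKM in WT libraries. The highest Fyco1-/- library lay well below the lowest WT library, and limma called the gene lower (log2 -0.28, SE 0.041, adjusted p = 0.0023). Of the other 11 subunit genes outside the pair 0 were called by limma or in the authors' deposited table (1 at an unadjusted p under 0.05), and 10 of the 12 in all had positive log2 values (9 to 11 under the 4 other scalings). Eif3h, the most abundant of those 11, averaged 115 ± 4.57 FPKM in Fyco1-/- and 111 ± 1.78 FPKM in WT (SD, n = 3 each; log2 0.04, SE 0.041, limma adjusted p = 0.586). Eif3d, which encodes a cap-binding subunit of eIF3, had the largest uncalled difference of the complex (22.8 and 19.9 FPKM in Fyco1-/- and WT, log2 0.19, limma adjusted p = 0.125). Eif3l, the partner of Eif3k, averaged 55.4 and 53.2 FPKM in Fyco1-/- and WT. The ratio of Eif3k to the median of the 11 other subunits, chosen after the values were seen, was 1.74, 1.61 and 1.80 in Fyco1-/- libraries, against 2.14, 2.16 and 2.17 in WT libraries. The ratios do not overlap between the genotypes, with Eif3k lower relative to the other subunits in Fyco1-/-. With 3 libraries a genotype the exact permutation p of such a ratio is at least 0.1, and it was 0.1 here.

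Eif3j1 and Eif3j2, the genes annotated for the loosely bound eIF3j subunit, moved in opposite directions. Eif3j1 (ENSMUSG00000027236, GRCm38 chr2:122028546-122056598, plus strand) has 8 merged exons, and Eif3j2 (ENSMUSG00000043424, chr18:43475418-43477796, minus strand) has 1. Eif3j1 measured 9.48, 9.45 and 9.80 FPKM in Fyco1-/- libraries, against 16.4, 15.9 and 16.0 FPKM in WT libraries (log2 -0.72, SE 0.057, limma adjusted p = 6.47e-05). Eif3j2 measured 19.2, 18.8 and 19.1 FPKM in Fyco1-/- libraries, against 0.664, 1.05 and 1.04 FPKM in WT libraries (log2 3.80, SE 0.11, limma adjusted p = 5.31e-08). The gap for Eif3j2 is the largest among the 43, a 20.8-fold ratio of the means, and even the lowest Fyco1-/- library lies far above every WT library. In estimated reads, Eif3j2 had 859 to 872 in Fyco1-/- libraries and 27.0 to 49.9 in WT libraries. The labels give C57BL/6 for both genotypes, and whether their genomes differ at this locus was not tested.

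The pair shares nearly all of its sequence, so the split of reads between them is uncertain. The Eif3j2 transcript of 2379 bases aligned to that of Eif3j1 at 99.4% identity along its whole length, with 4 mismatches and 10 gap positions. Of all 100-base windows of Eif3j2, the length of 1 read, 16.3% held any difference, and of 300-base windows, a length assumed for a fragment, 39.3% did. How reads that fit both genes were counted is not given in the sources used here. The sum of the FPKM of both was 28.7, 28.2 and 28.9 in Fyco1-/- libraries, against 17.06, 16.98 and 17.02 in WT libraries, and it was called higher (log2 0.73, SE 0.048, limma adjusted p = 1.62e-05). FPKM divides by gene length, and the exons of Eif3j1 span 5830 bases, so the same read counts for more FPKM in Eif3j2 than in Eif3j1. In RPM, reads scaled to library size but not to length (FPKM times exon kilobases), an alternative added after the data were seen, the pair had 101, 99.8 and 103 in Fyco1-/- libraries, against 97.1, 95.4 and 95.7 in WT libraries. The groups still stood apart, by a ratio of 1.05 in the means, and limma did not call the difference (log2 0.07, SE 0.052, adjusted p = 0.441). The division of the counted reads within the pair differed: Eif3j2 held 45.3%, 44.8% and 44.3% of them in Fyco1-/- libraries, against 1.63%, 2.61% and 2.58% in WT libraries. Reads that fit both genes may be missing from these counts, so whether the total of the pair differs cannot be told. With the longest Eif3j1 transcript of 5413 bases in place of its merged exons, the ratio of the summed reads was 1.09.

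Gm3650, an annotated pseudogene on the opposite strand 248 bases from Eif3j2, was likewise high in Fyco1-/- libraries. It measured 5.33, 6.10 and 7.61 FPKM in Fyco1-/- libraries, against 0.157, 0 and 0 FPKM in WT libraries. It was named after its values were seen and passed the filter on low values only through Fyco1-/-, so no test is given. The other 6 tested genes within 1 Mb of Eif3j2 were not called by limma. Gm3650 matches the Eif3j1 transcript in 5 stretches of 91 to 181 bases at 99.4% to 100% identity. With its reads added, the sum was 105, 104 and 108 RPM in Fyco1-/- libraries, against 97.3, 95.4 and 95.7 in WT libraries, a ratio of 1.10. Around Eif3j1, 3 of 25 tested genes within 1 Mb were called higher (AA467197, Map1a and Serf2) and 1 lower (Mfap1b), beside 3.42% and 5.02% of all tested genes. Spg11, whose exons overlap Eif3j1 on the other strand, averaged 3.77 and 4.10 FPKM in Fyco1-/- and WT with overlapping groups.

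**Figure D3:**
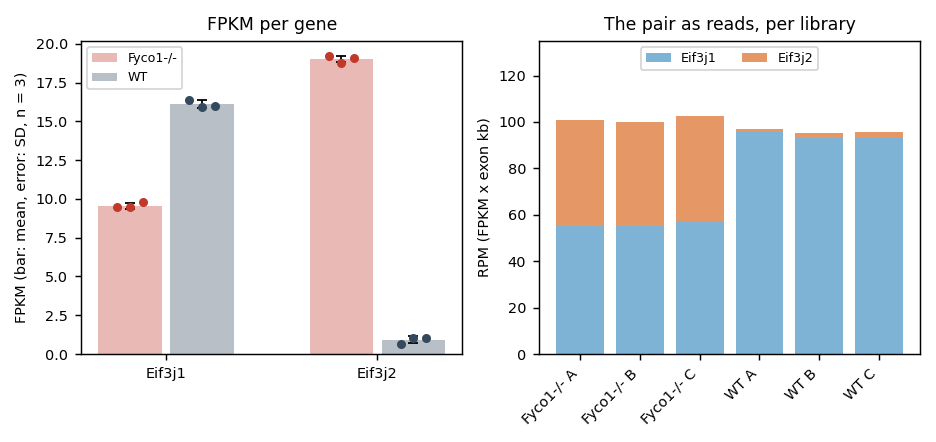
Left, FPKM of Eif3j1 and Eif3j2 in Fyco1-/- and WT (bars are means, error bars SD, points the 3 libraries). Right, RPM of the pair in each library, Eif3j1 in blue below Eif3j2 in orange: the bars reach 99.8 to 103 in Fyco1-/- and 95.4 to 97.1 in WT, while the orange share is 44.3% to 45.3% in Fyco1-/- and 1.63% to 2.61% in WT.

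Among the cap and poly(A) binding factors Pabpc1 had the clearest difference of the 43 outside the Eif3j pair. Pabpc1 (chr15:36595661-36609668, minus strand) rose to 399.7, 380.3 and 392.4 FPKM in Fyco1-/- libraries, against 296, 305 and 284 FPKM in WT libraries. The lowest Fyco1-/- library exceeded the highest WT library by a wide margin, and limma called it (log2 0.41, SE 0.037, adjusted p = 0.000147). A pseudogene near-identical to part of it, Gm16580, averaged 0.602 and 0.577 FPKM in Fyco1-/- and WT. Eif4a2 (chr16:23107444-23114136, plus strand), 1 of the 2 genes of the cap-complex helicase eIF4A, fell to 76.7, 67.8 and 72.8 FPKM in Fyco1-/- libraries, against 83.2, 83.9 and 84.6 FPKM in WT libraries. Fyco1-/- values were lower and more spread than WT values (log2 -0.21, SE 0.048, limma adjusted p = 0.0247). Its exons overlap those of Rfc4 on the other strand, which averaged 1.99 and 2.03 FPKM in Fyco1-/- and WT. The other helicase gene, Eif4a1, averaged 156 ± 4.44 FPKM in Fyco1-/- and 144.5 ± 4.54 FPKM in WT (SD, n = 3 each), with every Fyco1-/- library above every WT library, and limma did not call it (log2 0.11, adjusted p = 0.126). Eif4b, which encodes a stimulator of that helicase, measured 50.2, 53.1 and 49.9 FPKM in Fyco1-/- libraries, against 58.0, 55.9 and 57.9 FPKM in WT libraries (log2 -0.16, SE 0.044, limma adjusted p = 0.0459).

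The helicase genes thus stood in different proportions. The ratio of Eif4a1 to Eif4a2, chosen after the values were seen, was 1.98, 2.36 and 2.13 in Fyco1-/- libraries, against 1.72, 1.78 and 1.66 in WT libraries. The groups do not overlap, and an exact permutation test gave 0.1, the smallest p that 3 against 3 allows. Of the 10 genes of this group, limma called 1 higher and 2 lower, beside 3.42% and 5.02% of all tested genes. The authors' deposited table called 2 higher and 1 lower, and 7 of the 10 had positive log2 values in limma. The cap-binding gene Eif4e averaged 57.8 and 59.3 FPKM in Fyco1-/- and WT, and the scaffold gene Eif4g1 75.3 and 72.5 FPKM. Eif4h, Eif4e2, Eif4g2 and Eif4g3 differed by log2 values of 0.02 to 0.08. The calls of Eif4a2 and Eif4b depended on the scaling and were mostly lost when any 1 library was left out. Their log2 values then stayed negative, at -0.25 to -0.17 for Eif4a2 and -0.19 to -0.15 for Eif4b. Under median-of-ratios scaling their adjusted p was 0.0976 and 0.173, and they kept their call in 9 and 7 of 16 alternatives. Without any 1 library other than Fyco1-/- A the adjusted p of Eif4a2 was 0.0620 to 0.0795, and without any 1 of the 6 that of Eif4b was 0.0540 to 0.138.

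**Figure D4:**
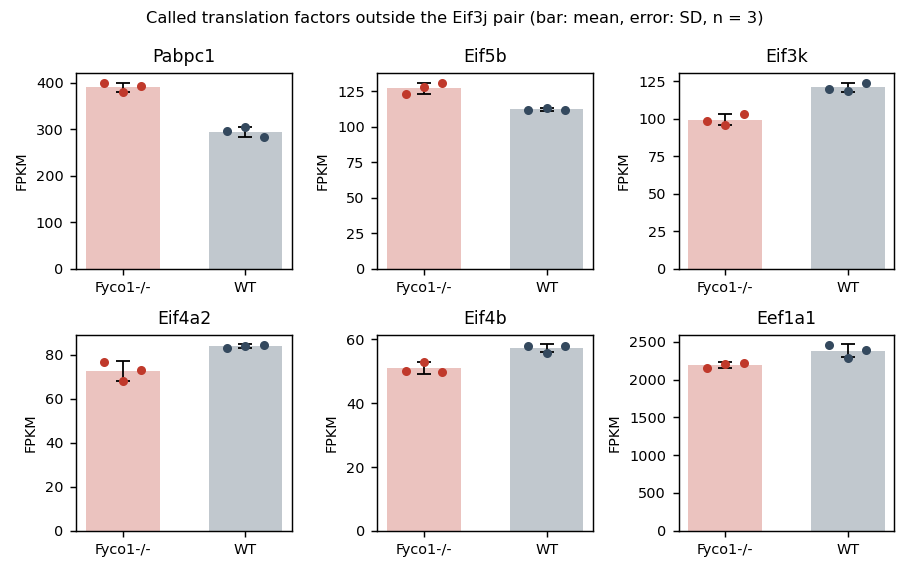
FPKM of the 6 called genes outside the Eif3j pair in Fyco1-/- (red) and WT (grey); bars are means, error bars SD, points the 3 libraries, and each axis starts at 0. Pabpc1 and Eif5b stand higher in Fyco1-/-, and Eif3k, Eif4a2, Eif4b and Eef1a1 lower, with no overlap between groups in any of the 6.

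For subunit joining, Eif5b, the GTPase gene that brings the large subunit to the start codon, rose to 123, 128 and 131 FPKM in Fyco1-/- libraries, against 111, 113 and 112 FPKM in WT libraries. Its WT values were the most even of the 43 (coefficient of variation 0.781%), and limma called the gene higher (log2 0.18, SE 0.037, adjusted p = 0.0162). Without Fyco1-/- B, Fyco1-/- C or WT A the adjusted p was 0.0582, 0.0656 or 0.0639. Rev1, whose exons overlap Eif5b on the other strand, averaged 3.29 and 3.28 FPKM in Fyco1-/- and WT. Eif6, which encodes a protein that keeps free large subunits from joining too early, averaged 21.97 FPKM in Fyco1-/- and 21.99 FPKM in WT.

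All 6 elongation genes had negative log2 values, but 1 of them passed the test. Eef1a1 (chr9:78478449-78489151, minus strand) measured 2149, 2209 and 2214 FPKM in Fyco1-/- libraries, against 2455, 2289 and 2393 FPKM in WT libraries (log2 -0.12, SE 0.031, limma adjusted p = 0.0441). Fyco1-/- libraries were below WT libraries in Eef1a1, Eef2, Eef1g, a structural subunit gene of the eEF1B exchange factor, and Eif5a, which encodes a factor that eases peptide bond formation at difficult sequences. Of all tested genes, 18.6% had all 3 Fyco1-/- values below the 3 WT values and 5.02% were called lower. The median log2 of all tested genes was itself negative, at -0.04. Eef2 measured 478, 487 and 473 FPKM in Fyco1-/- libraries, against 529, 504 and 522 FPKM in WT libraries, just short of a call (log2 -0.11, limma adjusted p = 0.0555). Eef1g and Eif5a had log2 values of -0.10 and -0.07 (limma adjusted p = 0.114 and 0.186), and the exchange subunit genes Eef1b2 and Eef1d overlapped between the genotypes. The ratio of Eef1a1 to Eef2, chosen after the values were seen, was 4.57 ± 0.0989 in Fyco1-/- and 4.59 ± 0.0489 in WT (SD, n = 3 each; exact permutation p = 0.7, two-sided). The median log2 of the 6 was -0.10, and it stayed negative under the 4 other scalings (-0.12 to -0.06, with 1 gene positive under median-of-ratios scaling and 0 under the others). The size for Eef1a1 depended on the scaling, with log2 -0.31 under quantile normalization (limma adjusted p = 0.0002), -0.13 in TPM (limma adjusted p = 0.028) and -0.07 under median-of-ratios scaling (limma adjusted p = 0.426). Without any 1 library other than WT B the adjusted p of Eef1a1 was 0.0886 to 0.159, and the authors' deposited table called 0 of the 6 genes. Eef1a1 shares a near-identical stretch, in some cases a short one, with 13 partners in the annotation. Of these, Gm13456 (6.29 and 3.94 FPKM in Fyco1-/- and WT) and Gm6548 (1.65 and 2.83 FPKM in Fyco1-/- and WT) were the most abundant in the table.

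**Figure D5:**
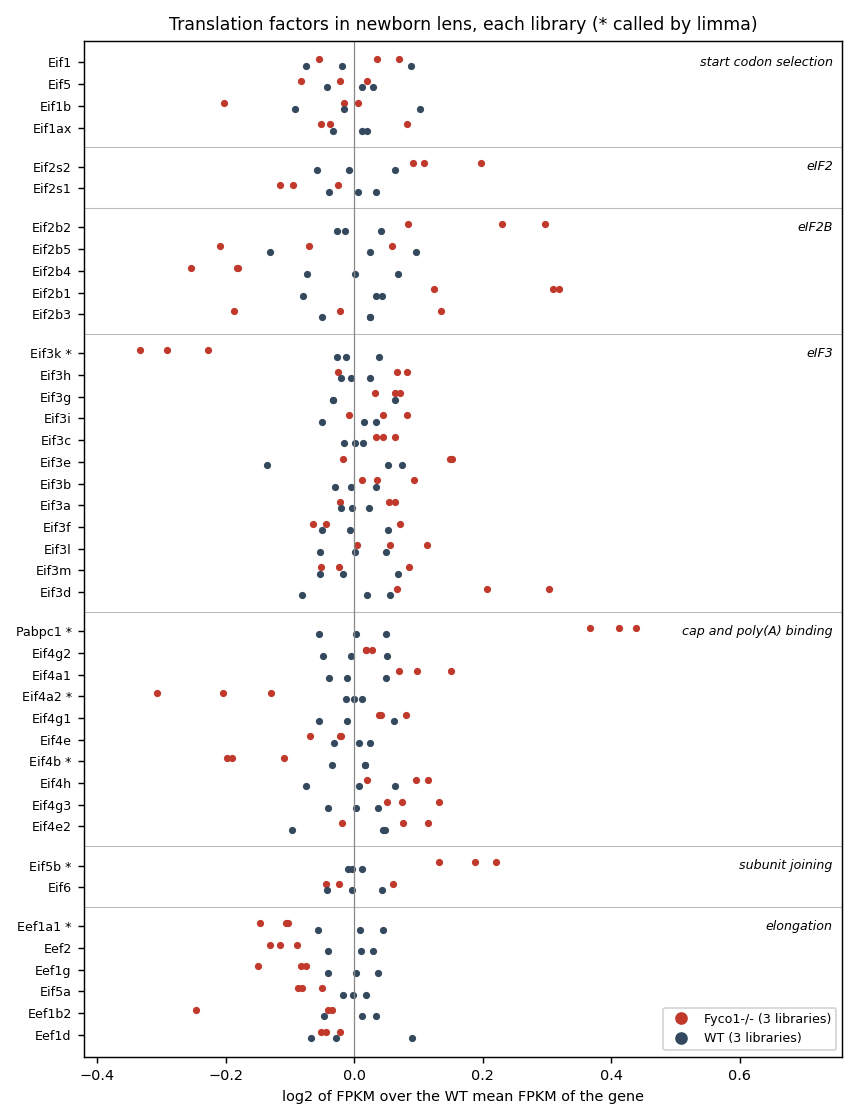
Log2 of each library's FPKM over the WT mean of the same gene, for the 41 genes outside the Eif3j pair, grouped by role, with Fyco1-/- in red above WT in dark grey and an asterisk on called genes. Pabpc1 lies apart on the right and Eif3k on the left, the red points of the elongation genes sit on the left of zero, and most other genes overlap.

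Lens epithelium markers were lower in Fyco1-/- libraries, as given above, with a median log2 of -0.22. Vessel and mesenchyme markers had a median log2 of -0.24, with 0 of 8 called. Their sums overlapped, at 34.8 to 38.4 FPKM in Fyco1-/- libraries and 35.9 to 51.8 FPKM in WT libraries. Whether either has a part in the lower values of Eif3k, Eif4a2, Eif4b and Eef1a1 was not tested. The 6 called genes outside the Eif3j pair were divided by the median of the 43 factors in the same library. All 6 kept their direction with no overlap between groups, as before the division. The ratio was chosen after the values were seen, for genes picked by their call, so it adds no separate support for the calls. That ratio was 6.75 ± 0.352 in Fyco1-/- and 5.18 ± 0.301 in WT for Pabpc1, and 1.72 ± 0.0993 in Fyco1-/- and 2.12 ± 0.0371 in WT for Eif3k (SD, n = 3 each).

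The authors' deposited table, made with DESeq2, called 8 of the 43 as well, 5 higher and 3 lower, and 9.37% of the 13066 genes it tested (5.22% higher and 4.15% lower). The calls of limma and of the authors' deposited table share 6 genes: Pabpc1, Eif5b, Eif3j2, Eif3j1, Eif3k and Eif4a2. The authors' deposited table adds Eif4a1 (log2 0.15, adjusted p = 0.00654) and Eif2s2 (log2 0.18, adjusted p = 0.0457). The authors' deposited table does not call Eef1a1 (log2 -0.07, adjusted p = 0.410) or Eif4b (log2 -0.11, adjusted p = 0.160). It has 30 of the 43 positive, against 23 in limma, and a median log2 of 0.06 over the 43 in the authors' deposited table. Over all tested genes its median log2 was -0.00022, against -0.04 in limma, so its values lie higher for genes at large. The limma fit with median-of-ratios scaling also had 30 of the 43 positive.

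Few other genes of translation were called. Of 58 further genes in 4 lists, 57 were in the table and 55 were tested, and limma called 2 higher and 0 lower, beside 3.42% and 5.02% of all tested genes. At an unadjusted p under 0.05 there were 8 higher and 4 lower, 21.8% of the 55 and near the 24.4% of all tested genes, and the authors' deposited table called 5 higher and 0 lower. Hbs1l, which encodes the GTPase that with pelota rescues stalled ribosomes, rose to 71.1, 75.1 and 70.1 FPKM in Fyco1-/- libraries, against 58.6, 58.7 and 61.2 FPKM in WT libraries (log2 0.28, SE 0.043, limma adjusted p = 0.00385). All 6 termination and recycling genes had positive log2 values, with Pelo, the pelota gene, at 15.4 and 13.7 FPKM in Fyco1-/- and WT and not called (log2 0.17, limma adjusted p = 0.154). Of these 6, 3 had an unadjusted p under 0.05, beside 24.4% of all tested genes. The authors' deposited table called 2 of the 6 higher, Etf1 and Hbs1l. Eif5a2, the second eIF5A gene, measured 6.24, 6.75 and 7.12 FPKM in Fyco1-/- libraries, against 5.05, 5.80 and 4.51 FPKM in WT libraries (log2 0.36, SE 0.098, limma adjusted p = 0.0480), and was the only 1 of 14 tested paralogues and further subunits called. Without any 1 library other than WT B its adjusted p was 0.0530 to 0.146. None of 25 repressors, kinases and regulators was called by limma, while 4 had an unadjusted p under 0.05, fewer than that background share, and 2 of them, Eif2ak1 and Ddx3x, were called higher in the authors' deposited table. Pdcd4, which encodes an inhibitor of eIF4A, had a log2 value of -0.21 (limma adjusted p = 0.0689), and Eif2ak1, the gene of the haem-regulated eIF2 kinase, 0.30 (limma adjusted p = 0.0874). None of 10 mitochondrial factors was called by limma or in the authors' deposited table, and 3 had an unadjusted p under 0.05, beside that same background. They include Mrrf, the ribosome recycling factor gene, at -0.35 (limma adjusted p = 0.0910) and Mtif2, the initiation factor gene, at -0.24 (limma adjusted p = 0.105).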

How the data were processed

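RNA-seq was made from 3 Fyco1-/- and 3 WT libraries of pooled newborn lenses. Per the labels, alignment used STAR 2.5 on GRCm38, HTSeq 0.6.1 gave the gene totals, and the authors deposited FPKM values for each library. The authors deposited log2 fold changes and p-values from DESeq2, quoted only where named. The annotation, the treatment of strand and of reads that fit several genes are not given in the sources used here. No count table was used.

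Genes with a mean of at least 0.5 FPKM (12001) were fitted with limma 3.58.1 (R 4.3.3, trend and robust moderation) on log2(FPKM + 0.5), which understates changes of low genes, with Benjamini-Hochberg adjustment over all of them and two-sided calls at 0.05. Genotype was the only term: libraries with the same letter did not deviate together (correlations -0.03, 0.03 and 0.03). On simulated data for this comparison of 12001 genes, the fit called 17.2% of 1.25-fold differences, 57.6% of 1.5-fold and 83.2% of 2-fold, and 4.06% of its calls were false. Each of 5 runs changed 200 genes drawn from all levels, fewer than the 1012 called in the data. Shares for abundant genes such as the translation factors were not worked out.

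Positions and exon lengths come from GENCODE M21, matched by symbol. Depth was estimated from steps between FPKM values, of which about 50% lay within 0.05 of a whole read, so no counting intervals are given. Partners that share a near-identical stretch (at least 95% over 100 bases) were found with blastn 2.17.0 for 21 of the 43 genes and 6 of the 8 called. They include genes that overlap the same exons, such as Rev1 for Eif5b. Of the 43, 16 overlap exons of another gene by 50 bases or more. Full values are given for each called gene, the Eif3j pair and the most abundant gene of each role. The genes and lists were chosen with earlier results of these data known. Alternatives changed the pseudocount, filter, moderation, scaling, pairing and libraries.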

Additional observations from a re-analysis of the deposited data

How the results depend on the processing

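Over 16 other settings of the fit, Eif3j1, Eif3j2, Eif3k, Pabpc1, Hbs1l and the Eif3j1 and Eif3j2 sum kept their direction and their limma call in all, and Eif5b in 13, Eif4a2 in 9, Eif4b, Eef1a1 and Eif5a2 in 7. Summed as reads and not as FPKM, the Eif3j pair differed by log2 0.0713 (limma adjusted p = 0.441). Its ratio in RPM was 1.05, and 1.09 with the shorter Eif3j1 length or 1.10 with Gm3650 added, choices also made after the data were seen. Of all tested genes 1012 were called, 568 with no filter on low values and 611 to 870 with 1 library left out. Leaving out Fyco1-/- B, Fyco1-/- C, WT A or WT B gave 670, 641, 614 or 611. Of the 43, the 5 lower calls became 2 with no filter, 2 with median-of-ratios scaling, 3 with the replicate block and 2 to 3 with 1 library left out. The replicate block called 929 genes, and the labels' letters do not pair the libraries. Median-of-ratios scaling set 627 genes higher and 483 lower, against 410 and 602, and the median log2 of the 43 at 0.0648, against 0.0186. For Eif1 the sign turned without Fyco1-/- A (log2 -0.0078) or WT B (log2 -0.0177), within a range of -0.0177 to 0.0631 for 1 library left out, and it was not called in any. The cause of these changes was not tested. With no filter the adjustment ran over 22298 genes, and leaving out 1 library made a group smaller, but neither was tested as a cause. Depth limits Eif3j2 in WT most, at 27.0 to 49.9 estimated reads.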

Other observations

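Called genes were counted among the tested genes within 1 Mb of each called factor, beside the 8.43% called of all tested genes. Around Eif3k, 3 of 41 were called higher (Med29, Nfkbib and Sirt2) and 3 lower (Ech1, Lgals7 and Spred3). Around Eif4a2 2 of 9 were lower (Crygs and Dgkg), around Eif4b 3 of 25 were lower, around Eef1a1 2 of 10 were lower, around Pabpc1 1 of 8 was lower (Ankrd46), and around Eif5b 1 of 13 was higher (Txndc9). Blood and macrophage markers, of which 0 of 5 tested were called, summed to 99.3 to 239 FPKM in Fyco1-/- libraries and 102 to 186 FPKM in WT libraries, with the highest sum in Fyco1-/- A. The ratio of Eif5a to Eif5a2 averaged 35.4 ± 2.42 in Fyco1-/- and 49.2 ± 5.56 in WT (SD, n = 3 each; exact permutation p = 0.1, the smallest that 3 against 3 allows).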
